A study of Mus musculus with 2 samples.

Results

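The miRNA genes Mir23a, Mir27a and Mir24-2 on mouse chromosome 8 and their paralogs Mir23b, Mir27b and Mir24-1 on chromosome 13 form a pair of clusters that arose from a common ancestor. Each cluster holds 1 gene of each of 3 miRNA families. The 6 genes were chosen by their symbols in the GENCODE M21 annotation, out of 2202 miRNA genes in the tables. The rule used no measured value, but it was set with earlier results of these data known. Their levels were read in microRNA sequencing libraries of the adrenal gland, an endocrine organ with a steroid-producing cortex around a medulla that releases adrenaline and noradrenaline. The series holds 1 group, adrenal gland tissue of C57BL/6J mice, an inbred laboratory strain, with 2 biological replicates, no treatment and no genetic change. The labels leave age and stage unknown. They describe the tissue as wild type and male in free text, but list sex as not collected. Both replicates carry the same donor record, so they are not shown to be separate animals. The p-values below ask only whether the 2 libraries differ beyond counting noise, and they hold no estimate of the spread between animals.

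A miRNA gene is transcribed as part of a longer RNA, from which a hairpin is cut and then trimmed to short mature forms, named 5p and 3p after the arm of the hairpin they come from. The seed, bases 2 to 8 of a mature form, does most of the pairing with target mRNAs, so forms with the same seed share many targets. The miR-23, miR-27 and miR-24 families are made together from shared primary transcripts, are expressed in many tissues and are well known from endothelial cells. The miR-23 and miR-27 families have been studied in the growth of blood vessels, miR-27 also in lipid metabolism and fat cell formation, and miR-24 has been reported to act on the mRNAs of enzymes of the last steps of aldosterone and cortisol synthesis in human adrenal cells.

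The mature sequences are shown because they set which reads can be told apart between the partner genes. All 6 genes were found by symbol in the RefSeq table of GRCm38.p6, the assembly that is also named mm10, which lists 11 mature forms of them. Each is written 5′ to 3′ with the seed in capitals. The 3p forms come first, then the 5p forms.
miR-23a-3p: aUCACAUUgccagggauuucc
miR-27a-3p: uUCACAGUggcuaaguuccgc
miR-27b-3p: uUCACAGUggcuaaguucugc
miR-24-3p: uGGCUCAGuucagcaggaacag
miR-23a-5p: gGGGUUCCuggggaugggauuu
miR-23b-5p: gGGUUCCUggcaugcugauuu
miR-27a-5p: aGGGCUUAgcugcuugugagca
miR-27b-5p: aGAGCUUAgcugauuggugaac
miR-24-2-5p: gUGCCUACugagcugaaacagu
miR-24-1-5p: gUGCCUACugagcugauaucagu
The form miR-24-3p is the product of both Mir24-2 and Mir24-1, and miR-23b-3p is the 3p form of Mir23b. The RefSeq table lists no miR-23b-3p, so its sequence is not shown and it entered no comparison of mature forms or seeds below.

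The partners differ in how far their 3p forms are alike. From the 5′ end, miR-27a-3p and miR-27b-3p differ by the single substitution C19U and share their seed. The first 18 bases of miR-27a-3p therefore stand in the Mir27b hairpin, and a read of this arm names its locus only by its last bases. Of the 21 bases of miR-23a-3p, the first 18 also stand unbroken in the Mir23b hairpin and in no other hairpin outside its own locus. All 22 bases of miR-24-3p stand in both Mir24 hairpins. The seeds of miR-23a-3p and miR-27a-3p are close to each other and differ by the substitution U7G, again counted from the 5′ end of the mature form.

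The 5p forms tell the loci apart earlier. The first difference between miR-24-2-5p and miR-24-1-5p is A17U, after 16 shared bases, and the pair has the same seed. For the 5p forms of the Mir27 genes, which differ at 8 of 22 positions, the first difference is G3A, inside the seed. No other hairpin of the annotation held more than the first 10 bases of miR-23b-5p or miR-27b-5p, or more than the first 9 of miR-23a-5p.

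The Mir24 hairpins show the extent of the identity, with miR-24-3p in capitals.
Mir24-2: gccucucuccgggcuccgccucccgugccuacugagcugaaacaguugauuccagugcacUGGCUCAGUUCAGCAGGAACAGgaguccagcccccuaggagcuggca
Mir24-1: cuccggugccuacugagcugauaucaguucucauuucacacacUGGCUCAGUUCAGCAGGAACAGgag
The longest stretch shared by these hairpins, of 107 and 68 bases, is 28 bases long and runs past both ends of the mature form. It is 20 bases long between the Mir23 hairpins and 20 between the Mir27 hairpins. A read that lies within such a stretch maps to both loci. Multimapping reads have a separate summary line in the deposited tables and are counted for no gene, so the levels below are those of reads placed at 1 locus, summed over both arms of a hairpin. A read of exactly miR-24-3p is thus counted for neither Mir24 gene.

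On mm10 the 3 genes of chromosome 8 lie within 404 bases on the plus strand. Mir23a (ENSMUSG00000065611.1) runs from 84208518 to 84208592, Mir27a (ENSMUSG00000065444.1) from 84208672 to 84208758 and Mir24-2 (ENSMUSG00000065541.1) from 84208815 to 84208921. No protein-coding gene overlaps them. The lincRNA gene Gm26532, on the same strand, overlaps the last 2 bases of Mir24-2. The cluster of chromosome 13 is longer, with 792 bases on the plus strand. Mir23b (ENSMUSG00000065599.2) runs from 63300484 to 63300557, Mir27b (ENSMUSG00000065475.2) from 63300712 to 63300784 and Mir24-1 (ENSMUSG00000105904.1) from 63301208 to 63301275. All 3 lie within 2010111I01Rik, the gene of aminopeptidase O, on its strand. Mir23b overlaps no exon of it and is intronic, while 1 annotated exon record of this host overlaps Mir27b and 4 overlap Mir24-1. The gene Fancc, of the Fanconi anaemia DNA repair pathway, spans the same region on the opposite strand with no exon over the hairpins. Mir27a follows Mir23a after 79 bases and Mir24-2 follows Mir27a after 56, whereas 154 bases separate Mir23b from Mir27b and 423 separate Mir27b from Mir24-1.

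**Figure D1:**
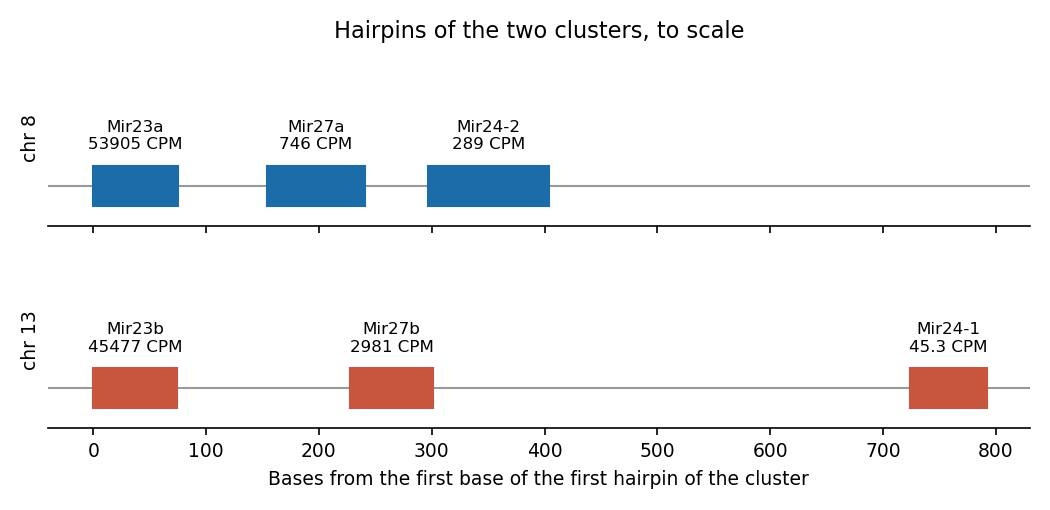
Hairpins of the chromosome 8 cluster (top) and the chromosome 13 cluster (bottom), drawn to scale as bars, against the distance in bases from the first base of each cluster's first hairpin, with the mean level of each gene over 2 replicates. Both clusters keep the order Mir23, Mir27, Mir24, and in both the level falls from Mir23 to Mir27 to Mir24.

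Counts assigned on the sense strand of miRNA genes summed to 10263894 in replicate 1 and 3525666 in replicate 2. Levels are given as CPM, the count scaled to a common assigned total, and 1 count is worth 0.0974 CPM and 0.284 CPM. Of mapped reads, 37.8% and 38.8% were multimapping, and the tables do not say how many of these came from any gene. The tissue carried the endothelial miRNA gene Mir126a (89916 and 95595 CPM), the smooth muscle miRNA gene Mir143 (24738 and 25539 CPM) and the neuroendocrine miRNA gene Mir375 (68022 and 76044 CPM). The further smooth muscle and neuroendocrine markers Mir145a (880 and 1080 CPM) and Mir7b (4743 and 3557 CPM) were also present. The skeletal muscle markers Mir133b and Mir206 had 1 and 0 counts and 22 and 9 counts. The liver marker Mir122 had 104 and 97.6 CPM, and the epithelial markers Mir200c and Mir141 had 13.6 and 6.24 CPM and 5.07 and 5.67 CPM.

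By reads placed at 1 locus, the Mir23 genes were among the most abundant miRNA genes of the adrenal gland, and the other members were far lower. Together the 6 genes took 9.63% of assigned counts in replicate 1 and 11.1% in replicate 2, a mean of 10.3% ± 1.01 (SD, n = 2). The Mir23 pair alone held 9.94% ± 1.04 of all counts, which is 96.0% ± 0.74 of the counts of the 6 members. The Mir27 pair held 0.373% ± 0.049 of all counts and the Mir24 pair 0.0334% ± 0.0126. All 6 members reached 10 CPM in both replicates, as did 267 of the 2202 miRNA genes, and the median of those 267 was 228 CPM. Mir23a, Mir23b, Mir27b, Mir27a and Mir24-2 stood above that median by their means and Mir24-1 below it.

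Mir23a had 506506 counts (49348 CPM) in replicate 1 and 206115 counts (58461 CPM) in replicate 2. Its partner Mir23b had 437931 counts (42667 CPM) and 170240 counts (48286 CPM). Replicate 2 was the higher for both genes, and the partners' ranges over the replicates came close to each other without overlapping. Among all miRNA genes, Mir23a stood at rank 6 and then 5 in the replicates, and Mir23b at rank 8 and then 7. The means were 53905 ± 6444 CPM for Mir23a and 45477 ± 3973 CPM for Mir23b (SD, n = 2), so intervals of 1 SD around them overlapped. Among the 271 other miRNA genes whose mean reached 10 CPM, the closest, by distance in log2(CPM + 1) over the 2 replicates, was Mirlet7b for both genes, with 49585 and 50754 CPM. Next came Mir375 for Mir23a and Mir99a (32560 and 47509 CPM) for Mir23b.

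The Mir27 genes were lower and stood in the opposite order. Mir27b, the member on chromosome 13, had 34868 counts (3397 CPM) in replicate 1 and 9045 counts (2565 CPM) in replicate 2. Mir27a had 6931 counts (675 CPM) and 2881 counts (817 CPM). Every value of Mir27b lay above every value of Mir27a, but the replicates were ordered in opposite ways, with replicate 1 high for Mir27b and low for Mir27a. The means were 2981 ± 588 CPM and 746 ± 100 CPM (SD, n = 2). Mir27b stood at ranks 41 and 43 and Mir27a at ranks 85 and 69. In level, Mir27b was closest to Mir335 (3463 and 2539 CPM), a miRNA gene of the imprinted Mest locus, and to Mir541. Mir27a was closest to Mirlet7c-1 (611 and 835 CPM) and to Mir376c.

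The Mir24 genes had the fewest counts of the members. Mir24-2 had 2086 counts (203 CPM) in replicate 1 and 1323 counts (375 CPM) in replicate 2. Mir24-1 had 434 counts (42.3 CPM) and 170 counts (48.2 CPM). The exact binomial 95% intervals, which cover counting error only, since amplified copies were not separated from distinct molecules, ran from 38.4 to 46.5 CPM and from 41.2 to 56.0 CPM for Mir24-1 and overlapped, while those of Mir24-2, from 195 to 212 CPM and from 355 to 396 CPM, did not. The means were 289 ± 122 CPM and 45.3 ± 4.20 CPM (SD, n = 2). Closest in level were Mir148a (172 and 393 CPM) and Mir152 to Mir24-2, and Mir92b and Mir669l to Mir24-1. The whole of miR-24-3p and the bases around it are the same at both loci. A read of exactly that form maps to both and is left out of these counts, whereas the 5p forms first differ at base 17. The counts are thus no measure of miR-24-3p in the tissue.

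**Figure D2:**
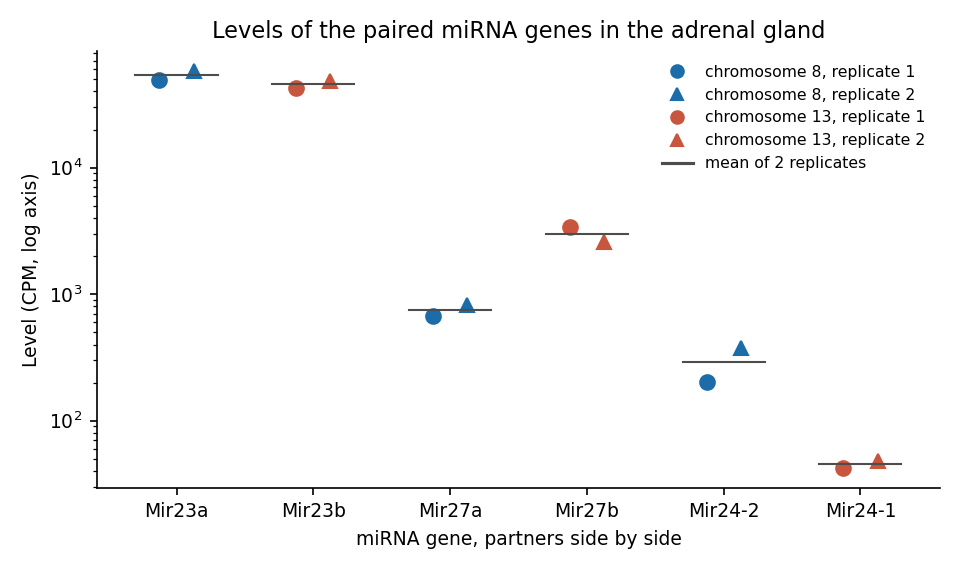
Level of each of the 6 genes in CPM (log axis) in replicate 1 (circles) and replicate 2 (triangles), with blue for chromosome 8, red for chromosome 13 and a line at the mean of 2 replicates. The Mir23 genes sit between 42667 and 58461 CPM, the Mir27 genes between 675 and 3397 CPM and the Mir24 genes between 42.3 and 375 CPM.

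In both replicates the order of the members by CPM was Mir23a, Mir23b, Mir27b, Mir27a, Mir24-2 and Mir24-1. Each step in this order was larger than the SD of either neighbour. For Mir23a and Mir23b alone it was smaller than the sum of their SDs. The hairpins differ in length from 68 to 107 bases, but a mature form gives reads of about its own length, so CPM was not divided by length. No test between genes was made, because the counts of different genes in 1 library measure different molecules and n is 2.

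The balance of the loci, in reads placed at 1 locus, differed between the families. Of the counts of the Mir23 pair, Mir23a held 53.6% in replicate 1 and 54.8% in the other library. The ratio of Mir23a to Mir23b was 1.16 and 1.21. In the Mir24 pair the chromosome 8 gene also led in such reads. The ratio of Mir24-2 to Mir24-1 was 4.81 (95% interval 4.33 to 5.34) in replicate 1 and 7.78 (6.63 to 9.18) in replicate 2. It leaves out reads of exactly miR-24-3p, which map to both loci, so it does not compare the loci in that form. In the Mir27 pair the chromosome 13 gene led. The ratio of Mir27b to Mir27a was 5.03 (4.90 to 5.16) in replicate 1 and 3.14 (3.01 to 3.28) in replicate 2.

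On the log2 scale, with 0.5 counts added to each count, the ratio of the chromosome 8 gene to its partner was 0.24 ± 0.047 for Mir23, -1.99 ± 0.48 for Mir27 and 2.61 ± 0.49 for Mir24 (SD, n = 2). The sign was the same in both replicates for each pair. Each ratio leaves out reads that lie wholly within the longest stretch shared by the hairpins of its pair. That stretch is 20 bases long for Mir23, 20 for Mir27 and 28 for Mir24. For Mir23 and Mir27 it holds the first 18 bases of miR-23a-3p and miR-27a-3p, so reads of those bases alone are left out. Between replicates the ratio moved 1.05-fold for the Mir23 pair, 1.60-fold for the Mir27 pair and 1.62-fold for the Mir24 pair. For comparison, the median miRNA gene among those averaging 10 CPM or more lay 1.32-fold apart between the replicates, and the middle 50% of these genes lay between 1.15-fold and 1.56-fold. The Mir23 pair thus kept its balance more closely than a typical single gene kept its level, and the other pairs did not, although a ratio of 2 genes carries the spread of both.

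**Figure D3:**
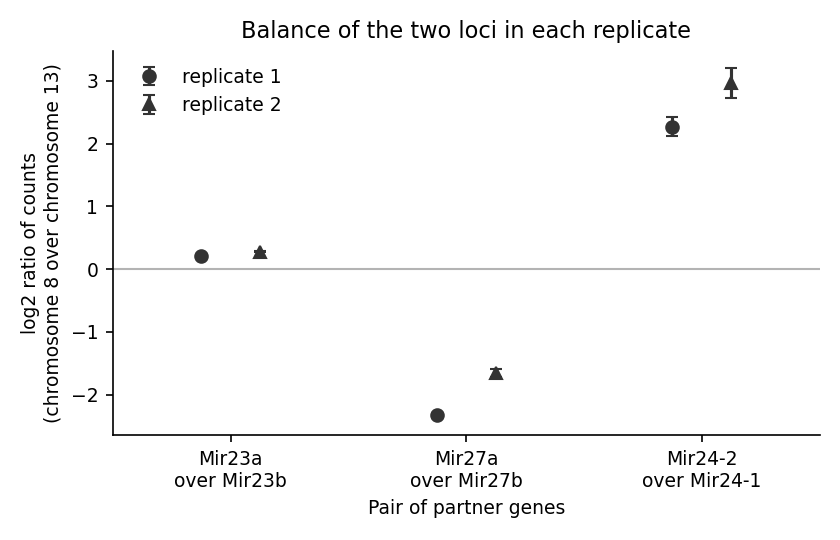
The log2 ratio of counts of the chromosome 8 gene over its chromosome 13 partner for the 3 pairs, in replicate 1 (circles) and replicate 2 (triangles), with bars for the exact binomial 95% interval, which covers counting error only. The Mir23 pair lies near 0 at 0.21 and 0.28, the Mir27 pair below 0 at -2.33 and -1.65, and the Mir24 pair above 0 at 2.26 and 2.96. All 3 ratios rest on reads placed at 1 locus, and the Mir24 ratio leaves out reads of exactly miR-24-3p, which map to both loci.

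The clusters had similar totals and a different make-up. The chromosome 8 cluster took 5.02% of counts in replicate 1 and 5.97% in replicate 2, and the chromosome 13 cluster took 4.61% and 5.09%. Their means were 5.49% ± 0.67 and 4.85% ± 0.34 (SD, n = 2), and the ranges overlapped. Within the chromosome 8 cluster, Mir23a was 73.1-fold above Mir27a in replicate 1 and 71.5-fold in replicate 2. Within the chromosome 13 cluster, Mir23b was 12.6-fold above Mir27b and 18.8-fold. The step from Mir23 to Mir27 was therefore larger on chromosome 8 in both replicates, and it moved 1.02-fold between replicates there and 1.5-fold on chromosome 13.

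The last gene of each cluster gave another picture. Mir23b was 1009-fold above Mir24-1 in replicate 1 and 1001-fold in replicate 2, while Mir23a was 243-fold and 156-fold above Mir24-2. From Mir27 to Mir24 the step was 3.32-fold and 2.18-fold on chromosome 8 and 80.3-fold and 53.2-fold on chromosome 13. The genes of 1 cluster are read from a shared primary transcript, and none of these ratios was near 1. The steps to Mir24, like those from Mir23 to Mir27, hold only for reads placed at 1 locus. What they would be with the multimapping reads cannot be told from the deposited counts.

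The libraries were then compared with each other, gene by gene, with an exact two-sided binomial test over the whole table. The test was run on 443 miRNA genes with at least 10 counts in sum, with library sizes scaled by TMM in edgeR and Benjamini-Hochberg adjustment, and it asks whether 2 libraries differ beyond counting noise. It says nothing about conditions, of which the series has 1. Of all genes tested, 52.8% were called at an adjusted p under 0.05, 21.2% higher in replicate 2 and 31.6% higher in replicate 1. All 6 members were tested and 5 were called, 4 higher in replicate 2 and 1 higher in replicate 1. A call depends on the number of counts. With a minimum of 50 counts, which all 6 members reached, 225 of 322 genes (69.9%) were called. The median log2 ratio of replicate 2 over replicate 1 was 0.20 over the 6 members and -0.17 over all genes tested.

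All 3 genes of the chromosome 8 cluster were called higher in replicate 2. The log2 ratio was 0.23 for Mir23a and 0.26 for Mir27a (95% interval 0.19 to 0.32; adjusted p = 6.97e-15, exact binomial test), and it was 0.87 for Mir24-2 (0.77 to 0.97; adjusted p = 3.37e-61). On chromosome 13, Mir23b was also called higher in replicate 2, with a log2 ratio of 0.16. Mir27b went the other way and fell by 0.42 on the log2 scale from replicate 1 to replicate 2 (interval -0.46 to -0.39; adjusted p = 1.37e-142, exact binomial test). Mir24-1 was not called, with a log2 ratio of 0.17, an interval from -0.09 to 0.43 and an adjusted p of 0.287. The Mir24-1 interval excludes the ratio of its partner Mir24-2.

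Only Mir24-2 and Mir27b lay further apart between the replicates than the median gene, at 1.82-fold and 1.34-fold, and the other members lay 1.12-fold to 1.20-fold apart. The replicates also differed in markers of blood cells. The erythroid miRNA genes Mir451a (8085 and 1685 CPM) and Mir144 (272 and 119 CPM) were lower in replicate 2, and the leukocyte miRNA genes Mir142 (314 and 434 CPM) and Mir150 (136 and 264 CPM) were higher there. Their part in the differences of the members was not tested. The endothelial marker Mir126a moved little, with a log2 ratio of 0.07.

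**Figure D4:**
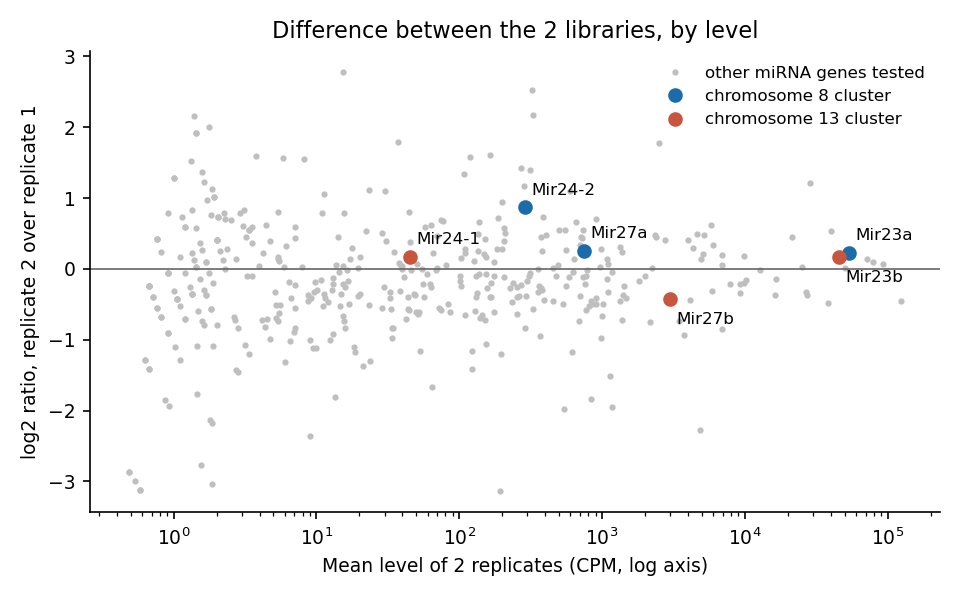
The log2 ratio of replicate 2 over replicate 1 against the mean level in CPM (log axis) for the 443 miRNA genes tested, with the chromosome 8 cluster in blue, the chromosome 13 cluster in red and all other genes in grey. Mir24-2 stands highest of the members at 0.87, Mir27b alone of them lies below 0 at -0.42, and Mir23a and Mir23b lie close together at the right.

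The Mir24 genes have miRNA genes on their opposite strand. Mir3074-2 lies within the span of Mir24-2, and Mir3074-1 covers all 68 bases of Mir24-1. The form miR-3074-5p of both is antisense to miR-24-3p and overlaps it by 20 of 22 bases. All 22 bases of miR-3074-5p are the same at both loci. A read of exactly that form is thus counted for neither Mir3074 gene, and the counts of these genes are no measure of it. Mir3074-2 had 2 counts and 1 count, against 2086 and 1323 for Mir24-2. Mir3074-1 had 144 counts (14.0 CPM) and 43 counts (12.2 CPM), against 434 and 170 for Mir24-1. In the column read as counts without regard to strand, all 4 of these genes are listed at 0 in both replicates, and that column alone has reads set aside as ambiguous between genes. The opposite-strand column showed at most 1 count for Mir23a, Mir27a, Mir23b and Mir27b in either replicate.

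Seeds were also compared with those of genes outside the clusters. The seed UCACAUU of miR-23a-3p lies within the 18 bases that also stand in the Mir23b hairpin, and the seed UCACAGU is that of both miR-27a-3p and miR-27b-3p. Among the 1738 mature forms in the RefSeq table, no form of a gene outside the 6 members had either seed. The seed GGCUCAG of miR-24-3p was also found in forms of Mir6413, Mir6410, Mir6369 and Mir5124b. None of these 4 genes had a count in either replicate, which allows up to 3 counts, worth 0.292 CPM and 0.851 CPM, of reads placed at 1 locus. Among the genes listed with this seed, only the Mir24 genes had counts. A read of exactly miR-24-3p maps to both Mir24 loci and is counted for neither. The Mir24 counts therefore do not show the level of forms with this seed.

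The likeness of the partners was set beside that of all miRNA genes. Of the 1738 mature forms, 136 (7.83%) were found whole in a hairpin at another locus, on either strand, as was miR-24-3p. For another 28 (1.61%), among them miR-23a-3p, miR-27a-3p and miR-27b-3p, the first 18 bases but not the whole form were found elsewhere, and 1574 (90.6%) had neither. By symbol, 1018 miRNA genes of the tables matched a gene with a listed mature form. Of 882 genes whose listed forms had neither likeness, 201 (22.8%) reached 10 CPM in both replicates, with a median of 270 CPM. Of 111 genes with a form found whole elsewhere, 36 (32.4%) did, with a median of 130 CPM, the highest being Mirlet7f-2 at 7922 ± 758 CPM (SD, n = 2). Mir24-2 stood above and Mir24-1 below that median. Of 25 genes with the first 18 bases elsewhere, 7 (28%) reached 10 CPM, and Mir23a, Mir27b and Mir27a were the first, the second and the fourth of them by level. Mir23b is counted among the 882 genes and the 201 of them that reached 10 CPM, on miR-23b-5p alone. The RefSeq table lists no miR-23b-3p, so the likeness of that form was not assessed. The classes were not tested against each other.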

How the data were processed

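MicroRNA libraries with inserts below 30 nt, per the labels, were made from total RNA of 2 adrenal gland replicates. The authors deposited raw counts per miRNA gene, 1 table per library, on mm10 and GENCODE M21 per the file headers of the accompanying descriptions; which aligner and counter made them is not given in the sources used here. No header names the 3 count columns. They were read from their values as unstranded, sense and opposite-strand counts, because the second had the largest assigned sum of them and no ambiguous reads. That sense column was used, and the 4 summary lines were left out of totals and tests. Unmapped reads made up 13.8% and 41.4% of all reads.

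CPM was computed over assigned counts. TMM factors (0.994 and 1.006) came from edgeR 4.0.16 and size factors from DESeq2 1.42.0 under R 4.3.3; the exact binomial test, intervals and sequence searches used Python 3.11.15, scipy 1.17.1 and pandas 2.3.3. On counts simulated for 450 tested genes with counting noise only, the test called 64.9% of 94 genes changed 1.5-fold, 92.0% of 100 changed 3-fold and 1.56% of 256 unchanged genes. Sequences were searched in all 2202 GENCODE hairpins.

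Named were the 6 members, opposite-strand and host genes, genes sharing a 3p seed, the 2 nearest genes in level per member, cell type markers and the 4 highest genes of a vascular list. Members, lists and rules were chosen with earlier results of these data known. Alternatives changed the column, the total, the scaling, the count minimum and the counts added.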

Additional observations from a re-analysis of the deposited data

How the results depend on the processing

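The percent of counts held by each cluster followed the total it was divided by. For the chromosome 8 cluster it was 6.24% in the column without regard to strand, 6.27% without Mirlet7g in the total and 3.14% of all mapped reads. For the chromosome 13 cluster it was 5.53%, 5.54% and 2.77%, and 4.50% of uniquely mapped reads. In the column without regard to strand the Mir24 genes were at 0 and gave no ratio. The 34 alternative values of the members' replicate ratios all kept their direction and their call, with Mir24-2 between 0.87 and 0.93 and Mir27b between -0.42 and -0.34. DESeq2 size factors gave 228 calls over all genes, 102 of them higher in replicate 2. The log2 ratios of the partners kept their sign without either replicate, from 0.21 to 0.28 for Mir23, from -2.33 to -1.65 for Mir27 and from 2.26 to 2.96 for Mir24. No paired analysis was possible because there is 1 group. Depth limits Mir24-1 most.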

Other observations

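Some vascular miRNA genes other than the members were also abundant. A list of 19 miRNA genes linked to blood vessels took 21.5% ± 0.80 of counts (SD, n = 2), and 17 of them reached 10 CPM in both replicates. Mir126a led at 92756 ± 4016 CPM, followed by Mir10a at 78579 ± 4228 CPM, Mir143 at 25139 ± 566 CPM and Mirlet7f-2 at 7922 ± 758 CPM, and these 4 carried most of the share. The median of the list was 616 CPM, and Mir126b and Mir19a were lowest at 0.483 and 0.0974 CPM. Mir23a and Mir23b, at 53905 and 45477 CPM, stood between Mir10a and Mir143. By the exact binomial test between the libraries, of the 17 tested genes of the list 7 were called with replicate 2 higher, 8 with replicate 1 higher and 2 not at all, where 21.2% and 31.6% of all genes tested were called in these directions. The median log2 ratio was -0.11 in the list and -0.17 over all genes tested. Mirlet7f-2 and Mirlet7f-1 encode the same mature form, so their levels too count only reads placed at 1 locus.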
